A study of Mus musculus with 56 samples.

Results

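The 8 genes studied are ones that the tumour suppressor p53 is known to induce and that act in metabolism or stress control: Ephx1, Dglucy, Ddit4l, Sesn1, Sesn2, Zmat3, Fdxr and Gls2. They were taken from a list of 8 names. In each tissue a gene was read from its single-gene probe set with the highest mean, out of 18194 genes so represented. Such a probe set was found for 6 of the 8. Fdxr (ferredoxin reductase) and Gls2 (a mitochondrial glutaminase) were not analysed here, since the probe annotation used lists none for them. All 6 measured genes passed the filter on low means in both tissues, among 13645 genes tested in each.

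The RNA came from whole colon and whole jejunum of BALB/C mice on 56 Affymetrix mouse arrays, and the submitters' design text gives a separate mouse for each array file. Wild type (WT) mice were compared with Tweak_KO mice (KO), which lack the TNF family cytokine Tweak (gene Tnfsf12), at 0, 6 and 24 h after 3 Gy of ionizing radiation. In colon there were 5, 4 and 4 WT arrays and 5, 5 and 5 KO arrays at 0, 6 and 24 h, and in jejunum 5, 5 and 4 WT and 5, 4 and 5 KO arrays. The labels give the same 3 Gy for the 0 h groups without saying whether those mice were irradiated, and they give no age and no detail of how the knockout was made.

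p53 is a transcription factor that is stabilised after DNA breaks and binds DNA at paired decamer motifs. Besides genes of arrest and death, it induces genes that slow growth, lower oxidants and shift metabolism. In the intestine it is known to act in the crypt epithelium within hours of irradiation. Of the measured genes, Ephx1 encodes microsomal epoxide hydrolase, which opens reactive epoxides to diols. Dglucy encodes a mitochondrial cyclase that clears D-glutamate. Ddit4l (also Redd2), Sesn1 and Sesn2 restrain the growth kinase complex mTORC1, the sestrins through the GATOR complexes that sense amino acids. Zmat3 (also Wig1) is a zinc finger protein that binds RNA and acts on splicing and stability.

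Promoter windows are shown for the genes with the largest rises in colon (Ephx1, Ddit4l, Dglucy) and for the later of both listed starts of Sesn1, which did not pass the test there. Each holds 250 bases before and 50 bases from the annotated start, from RefSeq on GRCm38.p6, in the direction of the gene. Capitals mark exact matches to the p53 consensus decamer, which reads the same way on both strands and was searched on both. Windows were given for 5 of the 6 measured genes, and none for Zmat3. The gene bodies lie at chr1:180989556-181017569 (Ephx1), chr3:137623672-137628332 (Ddit4l), chr12:100779057-100872610 (Dglucy), chr10:41810574-41908436 (Sesn1), chr4:132492804-132510456 (Sesn2) and chr3:32334792-32365665 (Zmat3).
Ephx1, chr1:181017520-181017819, minus strand: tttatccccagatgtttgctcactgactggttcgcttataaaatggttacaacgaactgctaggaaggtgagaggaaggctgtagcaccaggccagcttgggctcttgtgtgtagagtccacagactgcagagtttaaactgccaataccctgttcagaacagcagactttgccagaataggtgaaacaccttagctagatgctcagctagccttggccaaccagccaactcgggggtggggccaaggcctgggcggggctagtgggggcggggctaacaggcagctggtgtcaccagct
Ddit4l, chr3:137623422-137623721, plus strand: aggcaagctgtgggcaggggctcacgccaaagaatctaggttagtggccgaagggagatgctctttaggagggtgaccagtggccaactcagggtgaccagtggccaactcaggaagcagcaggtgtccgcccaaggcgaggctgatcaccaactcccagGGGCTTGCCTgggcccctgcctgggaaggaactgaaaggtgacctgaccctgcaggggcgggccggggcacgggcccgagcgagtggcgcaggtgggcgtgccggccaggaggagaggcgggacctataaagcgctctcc
Dglucy, chr12:100778807-100779106, plus strand: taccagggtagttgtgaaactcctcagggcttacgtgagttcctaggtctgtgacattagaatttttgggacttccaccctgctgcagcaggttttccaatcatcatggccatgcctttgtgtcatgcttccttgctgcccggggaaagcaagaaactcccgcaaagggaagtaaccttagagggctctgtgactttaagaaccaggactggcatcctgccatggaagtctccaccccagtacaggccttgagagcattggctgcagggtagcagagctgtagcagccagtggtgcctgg
Sesn1, chr10:41887189-41887488, plus strand: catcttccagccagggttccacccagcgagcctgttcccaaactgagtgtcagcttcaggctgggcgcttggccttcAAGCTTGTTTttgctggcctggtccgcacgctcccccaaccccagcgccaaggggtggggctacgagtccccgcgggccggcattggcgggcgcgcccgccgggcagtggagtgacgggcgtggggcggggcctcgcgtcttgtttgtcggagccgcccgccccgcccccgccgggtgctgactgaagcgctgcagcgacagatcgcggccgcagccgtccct
The decamer stood 90 bases before the Ddit4l start and 173 bases before the later Sesn1 start. It was not found in the windows of Ephx1, Dglucy and Sesn2 or at the earlier Sesn1 start. Of all 32851 windows of this length, 8.36% held a match. GGGCGG, the core of a GC box, on either strand, was found in 35.7% of all windows. It occurred at 2 places for Ephx1, 2 for Ddit4l, 1 for Sesn2, 4 at each Sesn1 start and none for Dglucy. These are matches of letters and describe no binding.

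Values are log2 signals, n is the number of arrays, and called means an adjusted p under 0.05 in limma over all genes tested. Arrays of a group are listed in order of replicate number. The targeted gene followed the labels: the probe set of Tnfsf12 and its read-through averaged 4.18 to 4.26 in the WT colon groups and 2.49 to 2.58 in the KO colon groups, and 3.07 to 3.84 against 2.50 to 2.59 in jejunum. The tissue labels matched their markers. A list of 9 colon epithelium genes averaged 12.29 to 12.82 on colon arrays and 6.63 to 8.53 on jejunum arrays, and a list of 10 absorptive enterocyte genes 12.68 to 14.12 on jejunum arrays and 6.50 to 11.64 on colon arrays. The array file names fall into 2 batches by their prefix. WT arrays all lie in the first, as does KO 0 h replicate 1 in each tissue, and every other KO array lies in the second (24 h replicate 3 of colon by elimination), so genotype and batch can hardly be told apart.

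Some arrays stood apart. In the colon array labelled KO 0 h replicate 3, all measured genes but Sesn1 lay near the irradiated groups. Lists of other p53 targets were also above the other KO 0 h arrays. There, 16 arrest and feedback targets averaged 7.70 against 7.05 to 7.18, and 13 cell death targets 7.33 against 6.45 to 6.64. Its 16 further metabolic p53 targets (7.27 against 7.01 to 7.25) and 10 repair targets (6.41 against 6.17 to 6.34) lay only just above those arrays. Lists of other kinds lay outside their range too. Among them, 10 absorptive enterocyte genes averaged 6.53 against 7.04 to 7.42, and 7 B cell genes 3.51 against 3.89 to 4.35. Its 14 iron-sulphur and mitochondrial iron genes (8.36 against 8.53 to 8.58) were lower as well, and 16 ATF4 targets just higher (7.02 against 6.88 to 6.99). In KO colon 6 h replicate 4, Ephx1 and Dglucy were low and Sesn1 high. There, 7 goblet cell genes averaged 12.96 against 13.37 to 13.46 on the other arrays of the group, and 12 xenobiotic metabolism genes 9.14 against 8.15 to 8.32. Its 16 arrest and feedback targets averaged 7.67 against 7.87 to 7.99, its 16 further metabolic p53 targets 7.21 against 7.39 to 7.51 and its 10 repair targets 6.32 against 6.49 to 6.56. Its 13 cell death targets averaged 7.66, within the 7.61 to 7.70 of the others. Its Gapdh 3′ to 5′ signal difference, a sign of RNA quality, was 0.366 against 0.302 to 0.514. WT colon 0 h replicate 2 carried enterocyte genes (11.64 against 6.85 to 8.94) and exocrine pancreas genes (9.57 against 3.65 to 7.43). In jejunum, KO 0 h replicate 3 and WT 24 h replicate 2 carried 6 distal small intestine genes at 9.84 and 10.06, against 5.20 to 5.77 and 5.04 to 5.41 on the other arrays of their groups. KO 0 h replicate 1 of jejunum, with Ephx1 at 4.91 and Sesn1 at 10.85, had the largest Gapdh 3′ to 5′ difference of its group (1.18 against 0.0800 to 0.788) and 9 smooth muscle genes at 8.84 against 8.08 to 8.24. The arrays labelled KO 6 h replicate 4 had the highest Sesn1 and the lowest Ephx1 of their groups in both tissues. The part of these differences in the results was not tested beyond the values given with arrays left out.

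In WT colon, 5 of the 6 measured genes rose by 6 h, and 1.44% of all genes tested were called higher. Their changes were 3.35 for Ephx1, 3.07 for Ddit4l, 2.67 for Dglucy, 1.46 for Zmat3 and 0.97 for Sesn2 on the log2 scale, while Sesn1 had 0.04. The median over the 6 was 2.06, against 0.00490 over all genes. The 0 h and 6 h arrays did not overlap for the 5 genes that rose, a pattern that 3.46% of all genes showed in the same direction. At 24 h the same 5 genes were above 0 h, where 2.78% of all genes were called higher, with a median over the 6 of 1.67 against 0.00708 over all genes, and again without overlap, as for 3.3% of all genes. In whole tissue, more RNA per cell and more cells of a type that expresses a gene cannot be told apart. A list of 11 proliferation genes fell in part in WT colon, with 5 lower at 6 h and 6 lower at 24 h and none higher, where 0.74% and 2.51% of all genes were called lower. Its part in these results was not tested.

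**Figure D1:**
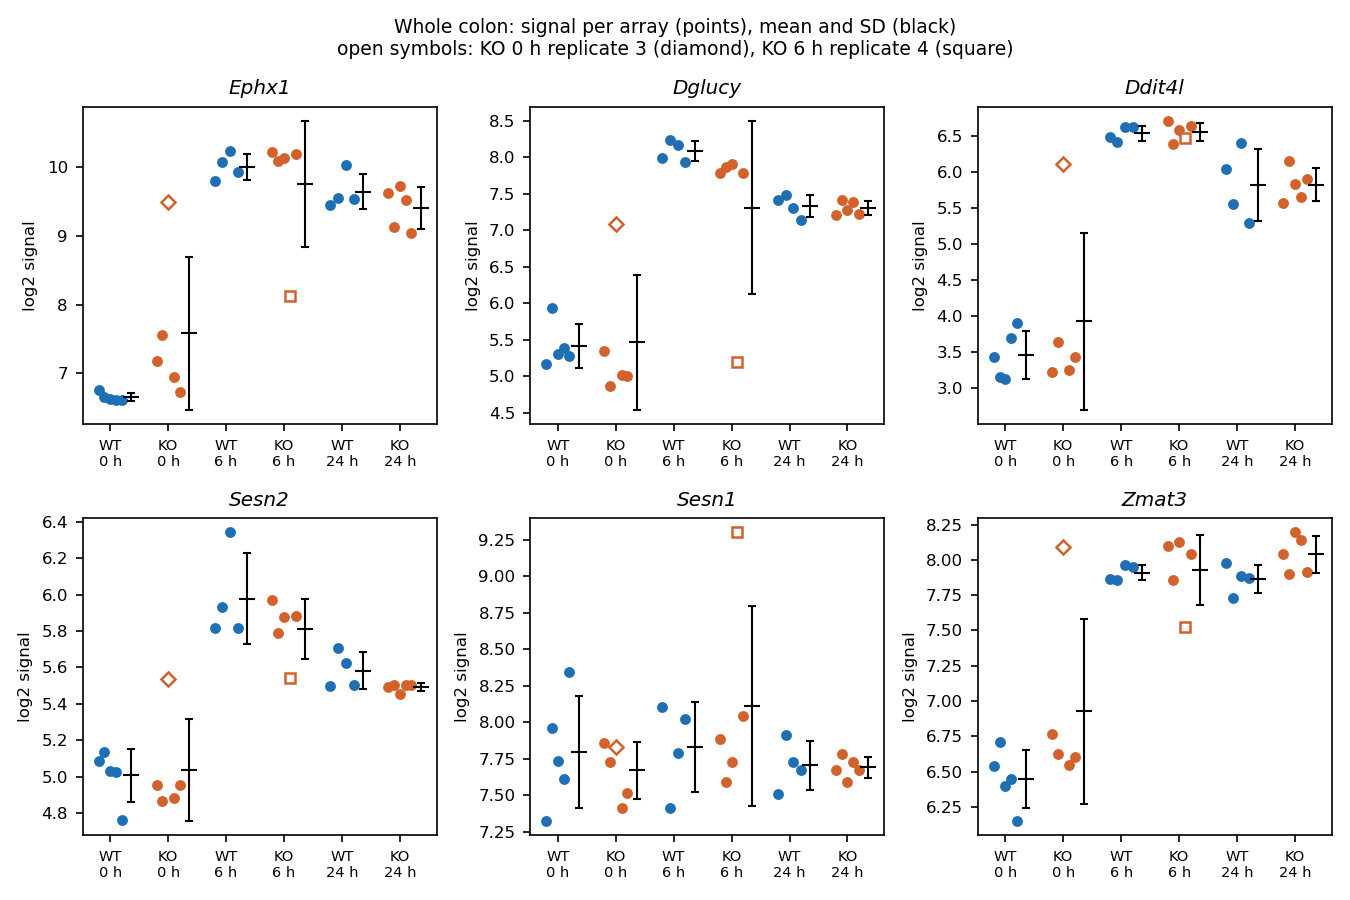
Log2 signal of the 6 measured genes on each colon array (points, WT blue, KO orange) by genotype and time, with the group mean and SD in black. Open symbols mark KO 0 h replicate 3 (diamond), which lies near the irradiated arrays for every gene but Sesn1, and KO 6 h replicate 4 (square), which is low for Ephx1 at 8.13 and Dglucy at 5.20 and high for Sesn1 at 9.30.

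Ephx1, the epoxide hydrolase, had the narrowest WT baseline in colon. In WT colon Ephx1 stood at 6.75, 6.65, 6.63, 6.61 and 6.62 at 0 h, at 9.79, 10.07, 10.23 and 9.93 at 6 h and at 9.46, 9.55, 10.02 and 9.54 at 24 h. In KO colon Ephx1 stood at 7.18, 7.56, 9.49, 6.94 and 6.73 at 0 h, at 10.23, 10.09, 10.14, 8.13 and 10.19 at 6 h and at 9.62, 9.12, 9.73, 9.52 and 9.04 at 24 h. The WT arrays at 0 h lay close together, below every irradiated WT array. In KO colon the 0 h array replicate 3 at 9.49 lay within the range of 24 h, and the 6 h array replicate 4 at 8.13 lay between the times. The WT change was 3.35 ± 0.403 (SE) at 6 h, a 10.2-fold rise (adjusted p = 9.30e-06), and 2.99 ± 0.403 at 24 h, 7.94-fold (adjusted p = 0.00012). The KO change was 2.17 ± 0.380 at 6 h (4.51-fold, adjusted p = 0.00268) and 1.82 ± 0.380 at 24 h (3.54-fold, adjusted p = 0.0451). Without KO 0 h replicate 3 the KO changes were 2.65 ± 0.289 (6.27-fold) and 2.30 ± 0.289 (4.92-fold), with adjusted p = 2.70e-06 and 3.32e-05. Group means ran from 10.01 ± 0.188 (SD, n = 4) in WT at 6 h, through 9.75 ± 0.911 (n = 5) in KO at 6 h, 9.64 ± 0.258 (n = 4) in WT at 24 h, 9.40 ± 0.306 (n = 5) in KO at 24 h and 7.58 ± 1.11 (n = 5) in KO at 0 h, to 6.65 ± 0.0579 (n = 5) in WT at 0 h. Among the neighbours in that order that were tested, limma called no difference between WT and KO at 6, 24 or 0 h. KO at 24 h was called higher than KO at 0 h (adjusted p = 0.0451), although the arrays of these groups overlapped.

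Dglucy, the D-glutamate cyclase, rose with it. In WT colon Dglucy stood at 5.18, 5.93, 5.31, 5.39 and 5.27 at 0 h, at 7.99, 8.23, 8.17 and 7.94 at 6 h and at 7.42, 7.48, 7.30 and 7.14 at 24 h. In KO colon Dglucy stood at 5.35, 4.87, 7.08, 5.02 and 5.01 at 0 h, at 7.79, 7.87, 7.91, 5.20 and 7.79 at 6 h and at 7.21, 7.42, 7.27, 7.39 and 7.22 at 24 h. In WT all arrays at 6 h lay above those at 24 h, and those above all at 0 h. In KO the 6 h array replicate 4 at 5.20 stood at the level of 0 h, and the 0 h array replicate 3 at 7.08 just below the 24 h arrays. WT Dglucy was higher by 2.67 ± 0.417 at 6 h (6.35-fold, adjusted p = 0.000374) and by 1.92 ± 0.417 at 24 h (3.78-fold, adjusted p = 0.00774). KO Dglucy was higher by 1.84 ± 0.393 at 6 h (3.59-fold, adjusted p = 0.0126) and by 1.84 ± 0.393 at 24 h (3.57-fold, adjusted p = 0.0476). Without KO 0 h replicate 3 these KO values were 2.25 ± 0.346 and 2.24 ± 0.346, with adjusted p = 0.000368 and 0.000525. Without KO 6 h replicate 4 the KO change at 6 h was 2.37 ± 0.276. The 24 h minus 6 h difference in WT was -0.75 ± 0.439 and was not called (adjusted p = 0.711), although the arrays did not overlap, as for 3.33% of all genes lower in that comparison. Group means were 5.42 ± 0.299, 8.08 ± 0.14 and 7.34 ± 0.151 in WT (SD, n = 5, 4 and 4) and 5.47 ± 0.921, 7.31 ± 1.18 and 7.30 ± 0.0982 in KO (SD, n = 5 each) at 0, 6 and 24 h.

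Ddit4l, the inhibitor of mTORC1 signalling, was low at 0 h and rose on every irradiated colon array. In WT colon Ddit4l stood at 3.43, 3.16, 3.13, 3.69 and 3.90 at 0 h, at 6.48, 6.41, 6.63 and 6.62 at 6 h and at 6.05, 5.55, 6.40 and 5.29 at 24 h. In KO colon Ddit4l stood at 3.23, 3.64, 6.11, 3.25 and 3.43 at 0 h, at 6.70, 6.38, 6.58, 6.48 and 6.64 at 6 h and at 5.58, 6.15, 5.84, 5.66 and 5.91 at 24 h. At 6 h the WT arrays spanned 6.41 to 6.63 and the KO arrays 6.38 to 6.70, and KO replicate 4 at 6.48 did not stand apart for this gene. At 0 h only KO replicate 3 exceeded 3.90. The change was 3.07 ± 0.372 in WT (8.41-fold, adjusted p = 1.00e-05) and 2.63 ± 0.351 in KO (6.17-fold, adjusted p = 0.000141) at 6 h. At 24 h it was 2.36 ± 0.372 in WT (5.13-fold, adjusted p = 0.000563) and 1.89 ± 0.351 in KO (3.72-fold, adjusted p = 0.0181). Without KO 0 h replicate 3 the KO changes were 3.17 ± 0.181 and 2.44 ± 0.181. Its means were 3.46 ± 0.335, 6.54 ± 0.107 and 5.82 ± 0.497 in WT (SD, n = 5, 4 and 4) and 3.93 ± 1.23, 6.56 ± 0.127 and 5.83 ± 0.226 in KO (SD, n = 5 each). The other 2 probe sets of Ddit4l, with lower signals, rose by 1.80 and 1.87 in WT colon at 6 h as differences of group means.

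The sestrins differed from each other. Sesn2 rose in a narrow range. In WT colon Sesn2 stood at 5.09, 5.14, 5.03, 5.03 and 4.76 at 0 h, at 5.82, 5.93, 6.34 and 5.82 at 6 h and at 5.50, 5.71, 5.62 and 5.50 at 24 h. In KO colon Sesn2 stood at 4.96, 4.87, 5.53, 4.88 and 4.95 at 0 h, at 5.97, 5.79, 5.88, 5.54 and 5.88 at 6 h and at 5.49, 5.50, 5.45, 5.51 and 5.50 at 24 h. Every WT array at 6 h and at 24 h exceeded every WT array at 0 h. In KO, replicate 3 at 0 h (5.53) lay just above the 24 h arrays. Sesn2 changed by 0.97 ± 0.125 at 6 h (1.96-fold, adjusted p = 2.41e-05) and 0.57 ± 0.125 at 24 h (1.49-fold, adjusted p = 0.00774) in WT. In KO it changed by 0.77 ± 0.118 at 6 h (1.71-fold, adjusted p = 0.000598). The KO value at 24 h was 0.45 ± 0.118 and was not called (adjusted p = 0.135), but without KO 0 h replicate 3 it was 0.58 ± 0.102 and called (adjusted p = 0.00296). Its means were 5.01 ± 0.146, 5.98 ± 0.249 and 5.58 ± 0.101 in WT (SD, n = 5, 4 and 4) and 5.04 ± 0.28, 5.81 ± 0.164 and 5.49 ± 0.0221 in KO (SD, n = 5 each). The other Sesn2 probe set, with lower signals, was higher by 1.09 and 1.18 in WT and by 0.78 and 0.39 in KO colon at 6 and 24 h, as differences of group means. On it, the KO arrays at 6 h overlapped those at 0 h.

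Sesn1 had no called change in colon. In WT colon Sesn1 stood at 7.33, 7.96, 7.74, 7.61 and 8.34 at 0 h, at 8.10, 7.41, 7.79 and 8.02 at 6 h and at 7.51, 7.91, 7.73 and 7.67 at 24 h. In KO colon Sesn1 stood at 7.86, 7.73, 7.83, 7.42 and 7.52 at 0 h, at 7.89, 7.59, 7.73, 9.30 and 8.04 at 6 h and at 7.68, 7.78, 7.59, 7.73 and 7.68 at 24 h. The groups overlapped at every time, and KO 6 h replicate 4 at 9.30 was the highest colon value of the gene. WT differences from 0 h were 0.04 ± 0.236 at 6 h (95% interval -0.45 to 0.52, adjusted p = 0.986) and -0.09 ± 0.236 at 24 h (interval -0.58 to 0.40, adjusted p = 0.897). KO differences were 0.44 ± 0.222 at 6 h (adjusted p = 0.408) and 0.02 ± 0.222 at 24 h (adjusted p = 1). Without KO 6 h replicate 4 the 6 h KO value of Sesn1 was 0.14 ± 0.157, and without KO 0 h replicate 3 it was 0.48 ± 0.239. Its means were 7.80 ± 0.382, 7.83 ± 0.31 and 7.71 ± 0.166 in WT (SD, n = 5, 4 and 4) and 7.67 ± 0.196, 8.11 ± 0.685 and 7.69 ± 0.0711 in KO (SD, n = 5 each). The other 3 Sesn1 probe sets had WT colon differences of 0.01, 0.03 and 0.09 at 6 h.

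Zmat3, the RNA-binding zinc finger gene, rose and stayed. In WT colon Zmat3 stood at 6.54, 6.71, 6.40, 6.45 and 6.15 at 0 h, at 7.86, 7.86, 7.96 and 7.95 at 6 h and at 7.98, 7.73, 7.89 and 7.87 at 24 h. In KO colon Zmat3 stood at 6.77, 6.63, 8.09, 6.55 and 6.60 at 0 h, at 8.10, 7.86, 8.13, 7.52 and 8.04 at 6 h and at 8.04, 7.90, 8.19, 8.14 and 7.91 at 24 h. In WT the 0 h arrays ended at 6.71 and the irradiated arrays began at 7.73. In KO the 0 h array replicate 3 at 8.09 lay among the irradiated arrays. Zmat3 changed by 1.46 ± 0.205 at 6 h (2.75-fold, adjusted p = 8.51e-05) and 1.42 ± 0.205 at 24 h (2.67-fold, adjusted p = 0.000253) in WT, and by 1.00 ± 0.193 (adjusted p = 0.00609) and 1.11 ± 0.193 (adjusted p = 0.0113) in KO. Without KO 0 h replicate 3 the KO changes were 1.29 ± 0.109 and 1.40 ± 0.109. The 24 h minus 6 h differences of Zmat3 were -0.04 ± 0.216 in WT and 0.11 ± 0.193 in KO, neither called. Its means were 6.45 ± 0.204, 7.91 ± 0.0548 and 7.87 ± 0.1 in WT (SD, n = 5, 4 and 4) and 6.93 ± 0.655, 7.93 ± 0.249 and 8.04 ± 0.132 in KO (SD, n = 5 each).

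In KO colon, 5 of the 6 measured genes were called higher at 6 h, where 1.26% of all genes were, and 4 at 24 h, where 0.139% were. The gene without a call at 6 h was Sesn1, and at 24 h Sesn1 and Sesn2. The arrays did not overlap for Ddit4l and Sesn2 at 6 h (1.94% of all genes) and for Dglucy at 24 h (0.623%). With batch as a term the counts were 5 at 6 h and 1 at 24 h. That term rests on KO 0 h replicate 1 against the other KO 0 h arrays, replicate 3 among them. The median change over the 6 was 1.42 at 6 h and 1.47 at 24 h, against -0.00886 and 0 over all genes. These medians were 1.77 and 1.82 without KO 0 h replicate 3. Without it the KO 0 h means were 7.10 ± 0.356 for Ephx1, 5.06 ± 0.206 for Dglucy and 3.39 ± 0.189 for Ddit4l (SD, n = 4). They were 4.91 ± 0.0473 for Sesn2, 7.63 ± 0.200 for Sesn1 and 6.64 ± 0.0938 for Zmat3. The overlaps given for KO colon against 0 h include that array. Beside the 6 h counts, 13 of 14 skeletal muscle genes were also called higher in KO colon, with list means of 4.53 to 6.23 at 6 h and 3.04 to 3.34 at 0 h; the same list spanned 3.12 to 5.64 in WT at 6 h, and its part was not tested. KO calls at 24 h were few and lay near the threshold. Ephx1 and Dglucy each lost their call when any one array of the KO 0 h or 24 h groups other than 0 h replicate 3 was left out, with changes of 1.61 to 1.91 and 1.69 to 1.86. Ddit4l lost it without 0 h replicate 1 (1.72), 2 (1.82), 4 (1.72) or 5 (1.77) or 24 h replicate 2 (1.81) or 5 (1.87), and Zmat3 without 0 h replicate 2 (1.03), 4 (1.01) or 5 (1.03). At 6 h, Dglucy lost its call without KO 0 h replicate 2 (1.69) or 5 (1.73). Without 0 h replicate 3, by contrast, 5 of the 6 were called at both times. Calls over all 13645 genes also moved with the array left out, from 100 to 246 at 6 h and from 4 to 140 at 24 h. With all arrays they were 202 and 25.

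Between 6 h and 24 h, limma called none of the 6 genes in either genotype in colon, and 1 in WT (Sesn2, -0.40 ± 0.132) and 2 in KO (Ddit4l, -0.73 ± 0.351, and Sesn2, -0.32 ± 0.118) had an unadjusted p under 0.05. Of all genes, 0.242% were called in WT and 1.29% in KO, while 1207 and 2138 of 13645 had an unadjusted p under 0.05. On the probe sets used, the arrays of both times did not overlap for Ddit4l and Sesn2 in either genotype and for Dglucy in WT. The same held for 3.33% of all genes lower in WT and 2.56% lower in KO. On the other probe sets of Ddit4l and Sesn2 the arrays of 6 h and 24 h overlapped in both genotypes. The other Sesn2 probe set was no lower at 24 h in WT, with changes from 0 h of 1.09 at 6 h and 1.18 at 24 h. With KO 0 h replicate 3 and KO 6 h replicate 4 both left out, a setting added once the values were known, 4 were called lower at 24 h than at 6 h in KO: Ephx1 (-0.76), Ddit4l (-0.75), Dglucy (-0.54) and Sesn2 (-0.39). KO 0 h replicate 3 is in neither group compared and enters only through the shared estimate of spread. With KO 6 h replicate 4 alone left out, limma gave the same 4 changes and called none (adjusted p from 0.123 to 0.416). The SE of Ephx1 was 0.328 in that setting and 0.150 with both arrays left out.

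**Figure D2:**
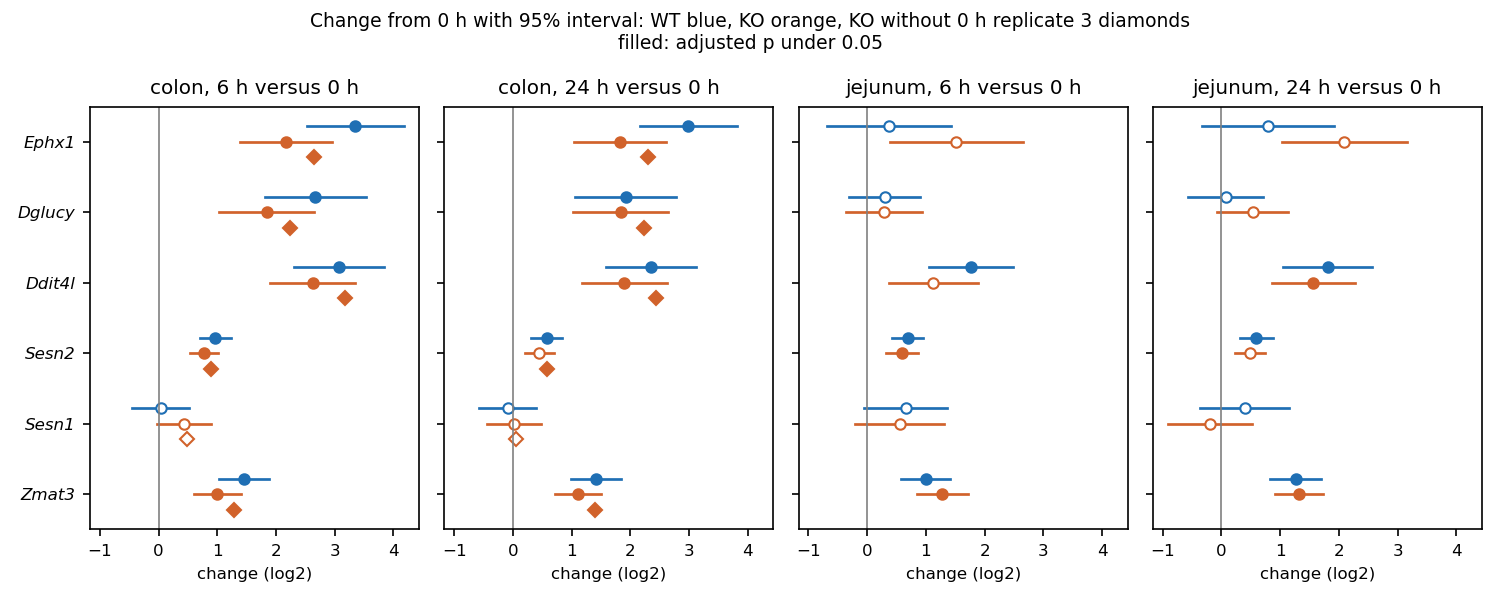
Change from 0 h on the log2 scale (horizontal axis) with its 95% interval for each measured gene, in WT (blue) and KO (orange), at 6 and 24 h in colon and jejunum; diamonds, without an interval, give the KO colon value without 0 h replicate 3, and filled symbols passed the test. Colon Ephx1, Dglucy and Ddit4l lie between 1.82 and 3.35, while jejunum Dglucy lies between 0.07 and 0.54.

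In jejunum fewer of the genes passed the test. In WT, 3 of the 6 rose by 6 h (0.264% of all genes were called higher) and the same 3, Ddit4l, Sesn2 and Zmat3, were called at 24 h (0.557%). In KO, Sesn2 and Zmat3 rose by 6 h (0.352%), and Ddit4l and Zmat3 were called at 24 h (0.264%). The enzyme genes Ephx1 and Dglucy, which had among the largest rises in colon, were not called at any time. The groups did not overlap for 3 of the 6 at 6 h and 2 at 24 h in WT (0.528% and 1.94% of all genes), and for 3 and 4 in KO (1.33% and 1.35%). Between 6 h and 24 h limma called none of the 6 in WT or KO, and none had an unadjusted p under 0.05, where 0.755% and 0.117% of all genes were called. Of all 13645 genes, 1752 in WT and 1319 in KO had an unadjusted p under 0.05. Because each tissue has its own value table and may have been normalized on its own, no test was made between them. The median change over the 6 was 0.68 and 0.70 in WT and 0.86 and 0.93 in KO at 6 and 24 h, against -0.0224, -0.0115, -0.0231 and -0.0130 over all genes. A proliferation list of 11 genes had 4 members lower in WT at 24 h and 2 in KO at 24 h, where 0.843% and 0.425% of all genes were called lower.

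**Figure D3:**
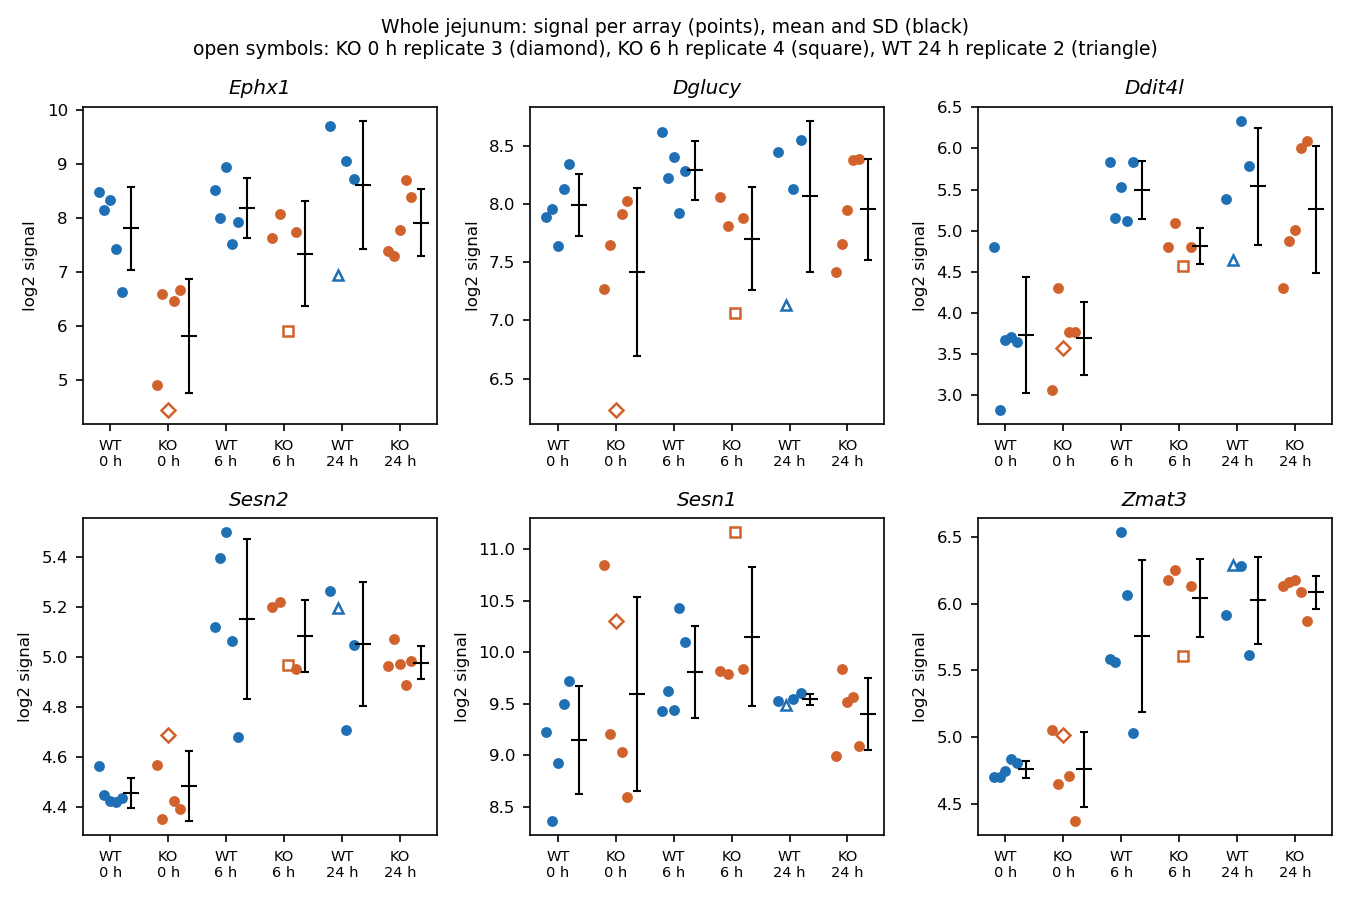
Log2 signal of the 6 measured genes on each jejunum array (points, WT blue, KO orange) by genotype and time, with the group mean and SD in black. Open symbols mark KO 0 h replicate 3 (diamond), KO 6 h replicate 4 (square) and WT 24 h replicate 2 (triangle), which are the lowest arrays of their groups for Ephx1, at 4.45, 5.91 and 6.94.

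Zmat3 was the one gene of the 6 called at both times in both genotypes in jejunum. In WT jejunum Zmat3 stood at 4.70, 4.70, 4.75, 4.84 and 4.81 at 0 h, at 5.58, 5.56, 6.53, 6.07 and 5.03 at 6 h and at 5.91, 6.29, 6.28 and 5.62 at 24 h. In KO jejunum Zmat3 stood at 5.06, 4.65, 5.01, 4.71 and 4.37 at 0 h, at 6.18, 6.25, 5.61 and 6.13 at 6 h and at 6.13, 6.16, 6.17, 6.09 and 5.87 at 24 h. No irradiated array of either genotype fell into the 0 h range of its own genotype. Zmat3 changed in WT by 1.00 ± 0.200 at 6 h (1.99-fold, adjusted p = 0.0165) and by 1.26 ± 0.212 at 24 h (2.40-fold, adjusted p = 0.0021). In KO it changed by 1.28 ± 0.212 at 6 h (2.43-fold, adjusted p = 0.00261) and by 1.32 ± 0.200 at 24 h (2.50-fold, adjusted p = 0.00101). The WT call at 6 h was lost when the first 0 h replicate (0.98) or replicate 4 of 6 h (0.92) was left out. Its means were 4.76 ± 0.0628, 5.75 ± 0.57 and 6.02 ± 0.323 in WT (SD, n = 5, 5 and 4) and 4.76 ± 0.281, 6.04 ± 0.293 and 6.08 ± 0.126 in KO (SD, n = 5, 4 and 5).

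Ddit4l rose in jejunum with a wider spread. In WT jejunum Ddit4l stood at 4.80, 2.82, 3.67, 3.70 and 3.65 at 0 h, at 5.83, 5.16, 5.53, 5.11 and 5.83 at 6 h and at 5.39, 4.65, 6.33 and 5.79 at 24 h. In KO jejunum Ddit4l stood at 3.06, 4.30, 3.57, 3.76 and 3.76 at 0 h, at 4.79, 5.10, 4.57 and 4.80 at 6 h and at 4.30, 4.88, 5.01, 6.01 and 6.09 at 24 h. WT 0 h replicate 1 at 4.80 stood above WT 24 h replicate 2 at 4.65, and the other WT arrays of 0 h lay below both. Ddit4l was higher by 1.77 ± 0.347 at 6 h (3.40-fold, adjusted p = 0.0133) and by 1.81 ± 0.368 at 24 h (3.51-fold, adjusted p = 0.0113) in WT. The 6 h call was lost without WT 0 h replicate 2 (1.54, adjusted p = 0.0506). In KO the 6 h value was 1.13 ± 0.368, not called (adjusted p = 0.185) although the arrays did not overlap, and the 24 h value was 1.57 ± 0.347 (2.97-fold, adjusted p = 0.0285). The latter call was lost without KO 0 h replicate 1 (1.41), 3 (1.54), 4 (1.59) or 5 (1.59) or KO 24 h replicate 3 (1.63), 4 (1.38) or 5 (1.36). Its means were 3.73 ± 0.704, 5.49 ± 0.35 and 5.54 ± 0.709 in WT (SD, n = 5, 5 and 4) and 3.69 ± 0.446, 4.81 ± 0.217 and 5.26 ± 0.77 in KO (SD, n = 5, 4 and 5). The other 2 probe sets of Ddit4l averaged 2.40 to 2.54 at 0 h, close to the array floor of 2.32.

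Sesn2 moved by less. In WT jejunum Sesn2 stood at 4.56, 4.45, 4.42, 4.42 and 4.44 at 0 h, at 5.12, 5.40, 5.50, 5.07 and 4.68 at 6 h and at 5.26, 5.19, 4.71 and 5.05 at 24 h. In KO jejunum Sesn2 stood at 4.57, 4.36, 4.69, 4.43 and 4.39 at 0 h, at 5.20, 5.22, 4.97 and 4.95 at 6 h and at 4.97, 5.07, 4.97, 4.89 and 4.99 at 24 h. On the probe set used, every irradiated array of a genotype lay above every 0 h array of it. The other Sesn2 probe set, with lower signals, was higher by 0.58 and 0.35 in WT and by 0.20 and 0.33 in KO at 6 and 24 h, as differences of group means. On it, the KO arrays at 6 h and the WT arrays at 24 h overlapped those at 0 h. Sesn2 rose by 0.69 ± 0.126 at 6 h (1.62-fold, adjusted p = 0.00711) and 0.59 ± 0.134 at 24 h (1.51-fold, adjusted p = 0.024) in WT, and by 0.60 ± 0.134 at 6 h in KO (1.51-fold, adjusted p = 0.0358). The KO value at 24 h was 0.49 ± 0.126 and was not called (adjusted p = 0.0725). The WT call at 24 h was lost when 0 h replicate 3 (0.59) or 4 (0.58), or 24 h replicate 1 (0.52), 2 (0.55) or 4 (0.60), was left out. The KO call at 6 h was lost without KO 0 h replicate 2 (0.57), 4 (0.58) or 5 (0.57) or any one KO 6 h array (0.55 to 0.64). Its means were 4.46 ± 0.0598, 5.15 ± 0.32 and 5.05 ± 0.248 in WT (SD, n = 5, 5 and 4) and 4.49 ± 0.139, 5.08 ± 0.143 and 4.98 ± 0.0661 in KO (SD, n = 5, 4 and 5).

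Sesn1 was not called in jejunum. In WT jejunum Sesn1 stood at 9.23, 8.37, 8.93, 9.50 and 9.72 at 0 h, at 9.43, 9.63, 9.44, 10.43 and 10.10 at 6 h and at 9.52, 9.49, 9.55 and 9.61 at 24 h. In KO jejunum Sesn1 stood at 10.85, 9.20, 10.31, 9.03 and 8.60 at 0 h, at 9.82, 9.79, 11.16 and 9.84 at 6 h and at 8.99, 9.84, 9.52, 9.56 and 9.09 at 24 h. Among KO arrays, 0 h replicates 1 and 3 and 6 h replicate 4 were the highest of their groups, and the same arrays were the lowest of their groups for Ephx1. Differences from 0 h were 0.66 ± 0.345 and 0.39 ± 0.366 in WT and 0.55 ± 0.366 and -0.20 ± 0.345 in KO at 6 and 24 h, with adjusted p from 0.568 to 0.884. Leaving out KO 0 h replicate 1 gave KO values of 0.87 ± 0.338 and 0.11 ± 0.321, neither called. Its means were 9.15 ± 0.527, 9.81 ± 0.445 and 9.54 ± 0.0493 in WT (SD, n = 5, 5 and 4) and 9.60 ± 0.941, 10.15 ± 0.675 and 9.40 ± 0.35 in KO (SD, n = 5, 4 and 5).

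Ephx1 had the largest SD within a group among the 6 genes in jejunum. In WT jejunum Ephx1 stood at 8.48, 8.15, 8.33, 7.42 and 6.63 at 0 h, at 8.51, 8.0, 8.93, 7.52 and 7.92 at 6 h and at 9.70, 6.94, 9.05 and 8.71 at 24 h. In KO jejunum Ephx1 stood at 4.91, 6.58, 4.45, 6.46 and 6.66 at 0 h, at 7.63, 8.06, 5.91 and 7.73 at 6 h and at 7.38, 7.29, 7.78, 8.70 and 8.38 at 24 h. Every KO array at 24 h lay above every KO array at 0 h, while the WT groups overlapped. The WT differences of Ephx1 were 0.37 ± 0.516 at 6 h and 0.80 ± 0.548 at 24 h (adjusted p = 0.877 and 0.488). The KO differences were 1.52 ± 0.548 at 6 h (adjusted p = 0.234) and 2.09 ± 0.516 at 24 h (4.27-fold, adjusted p = 0.0555). KO Ephx1 at 0 h was 1.99 ± 0.516 log2 units below WT, not called (adjusted p = 0.146). Without KO 0 h replicate 3 that genotype difference was -1.65 ± 0.518 and the KO 24 h value 1.75 ± 0.518, and without replicate 1 they were -1.76 ± 0.542 and 1.87 ± 0.542. Without KO 6 h replicate 4 the KO 6 h value was 1.99 ± 0.557, and without WT 24 h replicate 2 the WT 24 h value was 1.35 ± 0.536, none of them called. Its means were 7.80 ± 0.769, 8.17 ± 0.55 and 8.60 ± 1.18 in WT (SD, n = 5, 5 and 4) and 5.81 ± 1.05, 7.33 ± 0.969 and 7.91 ± 0.619 in KO (SD, n = 5, 4 and 5).

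Dglucy showed no called change in jejunum. In WT jejunum Dglucy stood at 7.89, 7.96, 7.64, 8.13 and 8.34 at 0 h, at 8.62, 8.22, 8.40, 7.92 and 8.29 at 6 h and at 8.45, 7.13, 8.13 and 8.55 at 24 h. In KO jejunum Dglucy stood at 7.27, 7.65, 6.23, 7.91 and 8.03 at 0 h, at 8.06, 7.81, 7.06 and 7.88 at 6 h and at 7.41, 7.66, 7.95, 8.38 and 8.39 at 24 h. The lowest arrays were KO 0 h replicate 3 at 6.23, KO 6 h replicate 4 at 7.06 and WT 24 h replicate 2 at 7.13. Dglucy differed from 0 h by 0.30 ± 0.293 and 0.07 ± 0.311 in WT and by 0.29 ± 0.311 and 0.54 ± 0.293 in KO at 6 and 24 h. The 95% intervals reached 0.90, 0.71, 0.93 and 1.14 at most. Its means were 7.99 ± 0.264, 8.29 ± 0.255 and 8.07 ± 0.646 in WT (SD, n = 5, 5 and 4) and 7.42 ± 0.725, 7.70 ± 0.442 and 7.96 ± 0.432 in KO (SD, n = 5, 4 and 5).

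Markers of position along the small intestine moved with some of the low arrays of Ephx1 and Dglucy. The mean of 10 proximal small intestine genes was 8.28 in KO 0 h replicate 3 and 8.41 in WT 24 h replicate 2, and 9.22 to 10.23 and 9.91 to 10.18 on the other arrays of their groups. KO 6 h replicate 4, the lowest of its group for both genes, lay just outside the other arrays of its group on this list (9.18 against 9.28 to 9.34) and on the distal list (6.997 against 6.67 to 6.80). The groups differed as well, with 10.23 to 10.41 in WT at 0 h and 9.18 to 9.34 in KO at 6 h. The other genes also varied with the proximal list mean over the 28 arrays, once each group's mean was taken off. Pearson r was 0.85 for Dglucy, 0.75 for Ephx1 and 0.61 for Ddit4l, and -0.47 for Zmat3, -0.45 for Sesn1 and -0.36 for Sesn2. With that list mean as a covariate, chosen after the data were seen, Ephx1 was called in KO at 6 h (1.89 ± 0.376, adjusted p = 0.0127) and 24 h (2.03 ± 0.348, adjusted p = 0.0025) and in WT at 24 h (1.62 ± 0.398, adjusted p = 0.0376). WT Ephx1 at 6 h stayed uncalled (0.66 ± 0.352), and so did Dglucy (0.48 to 0.60, adjusted p from 0.112 to 0.251). Ddit4l in KO at 6 h (1.33, adjusted p = 0.0308) and Sesn2 in KO at 24 h (0.50, adjusted p = 0.0404) were then called, and Sesn2 in WT at 24 h was not (0.51, adjusted p = 0.0716).

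**Figure D4:**
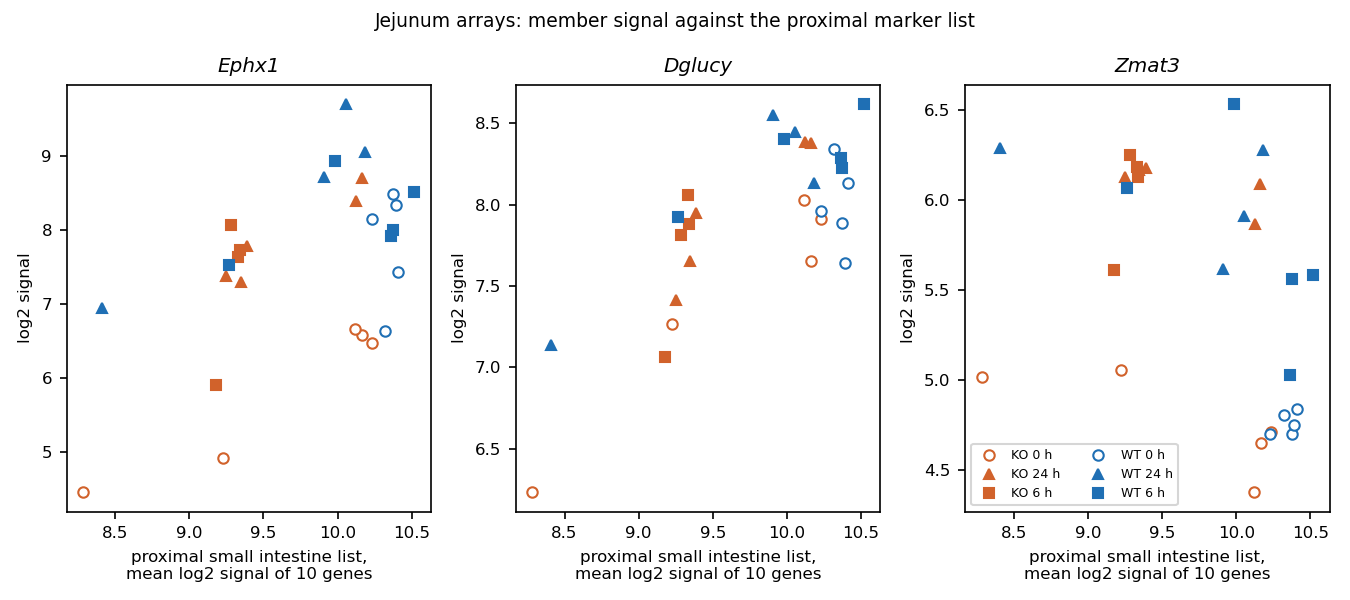
Log2 signal of Ephx1, Dglucy and Zmat3 (vertical axes) against the mean log2 signal of 10 proximal small intestine genes (horizontal axes) on each jejunum array, by genotype (WT blue, KO orange) and time (0 h open circles, 6 h squares, 24 h triangles). KO 0 h replicate 3, at 8.28 on the marker list, has the lowest Ephx1 (4.45) and Dglucy (6.23), while within each genotype all irradiated arrays lie above the 0 h arrays for Zmat3.

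The genotypes were compared at each time and in their changes. In limma none of the 6 genes was called between KO and WT at any time in either tissue, and none in the interaction, the KO change minus the WT change. In colon 2.07%, 0.879% and 0.469% of all genes were called between genotypes at 0, 6 and 24 h, and in jejunum 0.183%, 2.14% and 0.704%. For the interaction 0.022% and 0.0293% were called in colon at 6 and 24 h, and 0% in jejunum at both. At an unadjusted p under 0.05 there were 2 of the 6 genes at 0 h in colon (Ephx1, 0.93 ± 0.380, and Zmat3, 0.48 ± 0.193), 1 at 0 h in jejunum (Ephx1), and Ephx1 in the colon interaction at 6 h (-1.18 ± 0.554) and 24 h (-1.17 ± 0.554), and none in the remaining comparisons. Of all 13645 genes tested, 2292 at 0 h in colon and 1167 at 0 h in jejunum had an unadjusted p under 0.05. In the colon interactions 1479 genes had one at 6 h and 1116 at 24 h. At 6 h the KO arrays lay wholly below the WT arrays for Dglucy in colon (-0.77 ± 0.417, 4.35% of all genes), and for Ddit4l in jejunum (-0.68 ± 0.368, 2.74%), neither called. Without KO 6 h replicate 4 the Dglucy value was -0.25. Without KO 0 h replicate 3 the colon values of Ephx1 were 0.45 ± 0.289 at 0 h, and -0.70 ± 0.409 and -0.69 ± 0.409 for the interactions, with adjusted p of 0.502, 0.575 and 0.692. With KO 6 h replicate 4 left out as well, the Ephx1 interaction at 6 h was -0.30 ± 0.218. In colon the 95% intervals of the 24 h genotype difference were -1.07 to 0.59 for Ephx1, -0.76 to 0.77 for Ddit4l, -0.89 to 0.82 for Dglucy, -0.35 to 0.17 for Sesn2, -0.50 to 0.47 for Sesn1 and -0.25 to 0.59 for Zmat3. These intervals leave room for differences of that size in either direction.

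Cdkn1a, the cell cycle inhibitor p21, and Mdm2, the ligase that degrades p53, are the usual readouts of p53. In WT colon Cdkn1a changed by 1.32 ± 0.131 at 6 h and 1.19 ± 0.131 at 24 h, and Mdm2 by 1.12 ± 0.130 and 0.86 ± 0.130, all called. In KO colon Cdkn1a changed by 0.63 ± 0.123 at both times, and Mdm2 by 0.57 ± 0.123 at 6 h, with 0.37 ± 0.123 at 24 h not called. With KO 0 h replicate 3 left out these were 0.78 ± 0.0976 at both times for Cdkn1a, and 0.70 ± 0.107 and 0.50 ± 0.107 for Mdm2, all called. The KO change minus the WT change was -0.69 ± 0.180 and -0.56 ± 0.180 for Cdkn1a at 6 and 24 h. For Mdm2 it was -0.55 ± 0.179 and -0.49 ± 0.179. None of these interactions was called, with or without KO 0 h replicate 3. Mdm2 was also called higher in KO than in WT colon at 0 h (0.46 ± 0.123, adjusted p = 0.047 in limma), and without that array the difference was 0.33 ± 0.107 and not called (adjusted p = 0.132). In jejunum only WT Cdkn1a at 24 h was called (1.08 ± 0.178), and Mdm2 was at 0.28 to 0.62 in the other comparisons with 0 h, none called.

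Over the 28 arrays of colon, the genes whose signal was most like the mean standardized profile of the 6 were Eda2r (Pearson r = 0.975), Phlda3 (0.973), Ccng1 (0.973), Slc19a2 (0.953) and Ei24 (0.946). Over the 28 arrays of jejunum they were Phlda3 (0.905), Psrc1 (0.890), Plk2 (0.875), Ccng1 (0.873) and Aen (0.864). The values describe these arrays, which share the time groups. Sesn1 itself had an r of 0.247 in colon and 0.207 in jejunum with that mean, the lowest of the 6, while Dglucy went from 0.908 to 0.562 and Ephx1 from 0.952 to 0.699. In colon without KO 0 h replicate 3, the first of these, Eda2r, had 0.975.

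The other known p53 targets gave a measure of the surroundings of these genes in WT at 6 h. In colon, where 1.44% of all genes were called higher and 0.74% lower, 8 of 16 arrest and feedback genes were higher. Among them were Ccng1 (2.72 ± 0.311), Psrc1 (2.68 ± 0.342) and Plk2 (2.33 ± 0.257). Of 13 cell death genes, 8 were higher, among them Eda2r, a member of the TNF receptor family (3.71 ± 0.393), Phlda3 (2.84 ± 0.322) and Aen, an apoptotic nuclease (2.16 ± 0.256). Of 10 repair genes, 3 were higher and 1 lower: Polk (1.19 ± 0.176) and Ercc5 (0.68 ± 0.141) with the higher ones, and Pcna, the replication clamp, lower (-0.67 ± 0.179). Of 16 further p53 targets in metabolism, 3 were higher: Cpt1c (1.80 ± 0.277), the urate carrier Slc2a9 (1.66 ± 0.263) and the long noncoding gene Pvt1 (1.57 ± 0.235). Medians over these lists were 0.79, 0.67, 0.16 and 0.20, against 0.00490 over all genes.

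Partners of the 6 genes mostly did not pass the test in WT colon at 6 h, where 1.44% of all genes were called higher and 0.74% lower. At such shares, 1 call or none in a list of this length does not set it apart from all genes. Of 26 regulators of mTORC1 and of the GATOR complexes, on which Ddit4l and the sestrins act, none was called. Of 9 paralogs and partners, 1 was called (Zmat1, 0.39 ± 0.104). Sesn3, Ddit4 and Ephx2 had -0.03 ± 0.0860, 0.60 ± 0.225 and -0.55 ± 0.363, none called. One of 14 NRF2 targets rose (Gclc, which makes glutathione precursors, 0.70 ± 0.125), and 1 of 16 ATF4 targets fell (Shmt2, -0.65 ± 0.168). One of 14 iron-sulphur and mitochondrial iron genes fell (the transferrin receptor Tfrc, -0.83 ± 0.167), and none of 16 glutamine and glutamate enzymes or 12 xenobiotic metabolism genes, the classes of Dglucy and Ephx1, was called. In WT jejunum at 6 h, 0.264% of all genes were called higher. Of 16 arrest and feedback genes 5 rose, and of 14 cell death genes 5, with Phlda3 at 3.17 ± 0.182, Ccng1 at 2.60 ± 0.208, Psrc1 at 2.53 ± 0.218, Aen at 2.04 ± 0.176, Plk2 at 1.96 ± 0.182 and the death effector Bbc3 at 1.17 ± 0.195. There, none of 10 repair genes was called, Mgst2, a microsomal glutathione transferase, was the single further metabolic p53 target called (lower, -0.45 ± 0.104), and Cyp1a1, which oxidises xenobiotics, fell by 2.53 ± 0.559, where 0.169% of all genes were called lower.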

How the data were processed

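The values are the authors' deposited log2 signals of 45101 probe sets, 1 table per tissue, for which the submitters' processing notes name RMA and GCRMA without versions. Each tissue may have been normalized separately, and the floor was at log2 2.28 in colon and 2.32 in jejunum. Columns were matched to labels. The values of 55 equalled the series' value table, and 1 column without a matching label was not used, so KO colon 24 h replicate 3 came from the value table. Batches are name prefixes of array files, and that of this 1 array was taken, by elimination, from the unmatched column. Probe sets annotated to 1 gene (34958) were used, and those with several (932) or none (9211) were not.

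Each gene was read from its probe set with the highest mean. Genes in the lowest 25% by mean signal were not tested. Group means per tissue were fitted with limma 3.58.1 in R 4.3.3 (28 arrays, 6 groups, eBayes with trend, two-sided) and Benjamini-Hochberg adjusted p-values were taken at 0.05 for every comparison. The number of arrays limits the precision. Replicate numbers were not used as pairs. Members, lists and named genes (all members, up to 3 called genes of each list in WT at 6 h, 5 most alike genes per tissue) were chosen with earlier results of these data known. The code was tested on simulated data. Alternatives were other filters, normalization, trend, block, batch term, probe set means, fewer groups and left-out arrays.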

Additional observations from a re-analysis of the deposited data

Results flagged for a closer look

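Of 72 groups of 1 gene, 13 held an array far from the others by Dixon's test at 95%, and chance flags about 1 in 20. In colon, KO 0 h replicate 3 was high for Ddit4l (6.11 against 3.23 to 3.64), Dglucy (7.08 against 4.87 to 5.35), Sesn2 (5.53 against 4.87 to 4.96) and Zmat3 (8.09 against 6.55 to 6.77). KO 6 h replicate 4 was low for Dglucy (5.20 against 7.79 to 7.91) and Ephx1 (8.13 against 10.09 to 10.23) and high for Sesn1 (9.30 against 7.59 to 8.04). WT 0 h replicate 2 was high for Dglucy (5.93 against 5.18 to 5.39), WT 0 h replicate 5 low for Sesn2 (4.76 against 5.03 to 5.14) and KO 24 h replicate 3 low for Sesn2 (5.45 against 5.49 to 5.51). In jejunum, KO 6 h replicate 4 was high for Sesn1 (11.16 against 9.79 to 9.84), WT 0 h replicate 1 high for Sesn2 (4.56 against 4.42 to 4.45) and KO 24 h replicate 5 low for Zmat3 (5.87 against 6.09 to 6.17). Groups of genes measured on the same arrays are not independent.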

How the results depend on the processing

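No called change of the 6 genes turned its sign under the alternatives run. Replicate numbers were not used as pairs. Of the pairs of groups in the check, WT jejunum at 0 and 6 h was the exception in which all 5 same-numbered pairs had a correlation of their deviations over 0.1 (0.151 to 0.471). There the called changes with the replicate block were 1.77 ± 0.348 for Ddit4l, 0.69 ± 0.122 for Sesn2 and 1.00 ± 0.182 for Zmat3. With the replicate block the calls of the 6 genes were the same in all 132 results; the counts stayed at 5 and 5 in WT colon at 6 and 24 h against 0 h. Counts of the 6 genes that moved were these. Colon KO 24 h against 0 h had 4, and 2 without the filter, 1 with batch as a term and 0 with only the groups compared; colon KO 6 h had 5 and 0 with only the groups compared; colon 24 h against 6 h had 0 and 1 lower in each genotype with only the groups compared, and 4 lower in KO without KO_Col_0h replicate 3 and KO_Col_6h replicate 4 (chosen after the data were seen). Jejunum KO 24 h had 2, and 1 without the filter, with batch or with the mean of probe sets; KO 6 h had 2, 1 with the mean of probe sets and 0 with only the groups compared; WT 6 h and 24 h had 3 and 3, and 0 and 1 with only the groups compared. With the proximal list as covariate (chosen after the data were seen), KO 6 h and 24 h in jejunum had 4 and 4. The cause of these moves was not tested. A fit on fewer groups has fewer arrays, and the batch term rests on 1 KO array per tissue, 0 h replicate 1. Leaving out each array in turn gave 0 to 5 for colon KO 24 h, 4 to 5 for colon KO 6 h, 5 to 5 for WT colon at 6 and 24 h, 2 to 3 for WT jejunum at 6 and 24 h, 1 to 2 for KO jejunum at 6 and 24 h, and 0 to 0 for all others.

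Over all genes, leaving out 1 array gave 4 to 140 for the 25 called in colon KO 24 h, 175 to 710 for the 297 in WT 6 h, 327 to 1341 for the 722 in WT 24 h and 100 to 246 for the 202 in KO 6 h; in jejunum 34 to 173 for the 59 in WT 6 h, 83 to 235 for the 191 in WT 24 h, 30 to 235 for the 90 in KO 6 h and 40 to 162 for the 94 in KO 24 h. With only the groups compared, the colon counts against 0 h were 93 and 65 in WT and 41 and 0 in KO, and the jejunum counts 18 and 47 in WT and 22 at 6 h in KO. With batch as a term, the KO changes had 12 at 24 h in colon, and 235 and 162 in jejunum, and the genotype comparisons went from 283, 120 and 64 to 14, 17 and 9 in colon and from 25, 292 and 96 to 390, 744 and 194 in jejunum. That term is set by KO 0 h replicate 1 of each tissue against the other KO 0 h arrays, so these counts rest on 1 array per tissue. In jejunum it is an array that stood apart. Without the filter, colon had 13 for KO 24 h against 0 h, and 20 and 87 instead of 33 and 176 for 24 h against 6 h in WT and KO. With the replicate block, jejunum KO 6 h had 50. Leaving out KO_Col_0h replicate 3 with WT_Col_0h replicate 2 or with KO_Col_6h replicate 4 gave 146 or 173 for colon KO 24 h, leaving out KO_Jej_0h replicate 3 with WT_Jej_24h replicate 2 gave 164 for jejunum KO 6 h, and the proximal covariate gave 172 for jejunum KO 24 h. Signals of Ddit4l at 0 h lay near the floor, where differences can be compressed.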
